A study of Mus musculus with 11 samples.

Results

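Otx2, Pou3f1, Sall2, Zic2, Zic5, Foxd3, Utf1, Sox3 and Grhl2 encode transcription factors or chromatin-bound regulators of the formative epiblast, the state of pluripotency that follows the naive one. They were chosen by name as a set of such factors, with earlier results of these data known. They are 9 of the 20717 protein-coding genes measured. The quantity measured at them was 5-hydroxymethylcytosine (5hmC) in mouse embryonic stem (ES) cells and in epiblast-like cells (EpiLC) made from them. For each gene all 2 kb tiles overlapping its annotated GRCm38 span, extended by 2 kb on either side, were taken, and the tiles from there to 20 kb served as a second view called the flanks.

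HMCP-seq is a capture method that enriches sonicated DNA fragments carrying 5hmC before sequencing. TET_WT, the parental line of a triple knockout of Tet1, Tet2 and Tet3, was profiled as ES cells in 2i/Lif at day 0 (n = 3 libraries), and as EpiLC at day 1 (n = 2, the replicates numbered 2 and 3) and day 2 (n = 3). DNMT_WT, the parental line of a triple knockout of Dnmt1, Dnmt3a and Dnmt3b, was profiled as EpiLC at day 2 only (n = 3). All 11 libraries are thus of wild-type lines without treatment other than the change of culture. The knockout lines and embryoid bodies were not analysed here. Nothing in the labels states that replicates are separate cultures, and each p-value below therefore reflects only the spread between these libraries, which may be technical. In such bulk samples a larger share of cells carrying the mark and more of the mark per cell cannot be told apart.

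5hmC is made when TET enzymes oxidise 5-methylcytosine. In pluripotent cells it is known to lie at active and poised enhancers, in gene bodies and on the shoulders of CpG islands, while the dense centres of unmethylated CpG islands carry little of it. During the passage from naive to formative pluripotency OTX2 and POU3F1 are known to redirect OCT4 to new enhancers, GRHL2 to open enhancers of epithelial genes, and FOXD3 and ZIC2 to act at enhancers as the naive program is shut down. SALL2 is a spalt-type zinc finger factor, ZIC5 a zinc finger factor encoded beside ZIC2, UTF1 a chromatin-bound regulator of bivalent genes, and SOX3 a SOXB1 factor related to SOX2. 5hmC is a mark on DNA, and nothing below measures the expression of these genes.

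The DNA just before the annotated starts is shown first because the mark is carried mostly by cytosines of CG dinucleotides, and the tiles holding these starts return in the results. RefSeq windows (GRCm38.p6) matched 5 of the 9 genes, with 9 starts in all. Pou3f1, Zic2, Sox3 and Grhl2 had no entry. Each sequence is the 250 bases before a start, 5′ to 3′ on the gene's strand, with the dinucleotide CG in capitals. CG reads the same on both strands, and its matches cannot overlap one another. Over all 32851 windows of this length the median was 6 CG.
Foxd3 (chr4:99656049-99656298, plus strand): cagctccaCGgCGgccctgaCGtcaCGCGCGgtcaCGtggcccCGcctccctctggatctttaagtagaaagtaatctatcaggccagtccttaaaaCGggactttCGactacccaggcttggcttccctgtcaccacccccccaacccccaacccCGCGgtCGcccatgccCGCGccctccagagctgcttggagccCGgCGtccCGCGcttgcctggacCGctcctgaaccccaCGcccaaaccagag
Utf1 (chr7:139943606-139943855, plus strand): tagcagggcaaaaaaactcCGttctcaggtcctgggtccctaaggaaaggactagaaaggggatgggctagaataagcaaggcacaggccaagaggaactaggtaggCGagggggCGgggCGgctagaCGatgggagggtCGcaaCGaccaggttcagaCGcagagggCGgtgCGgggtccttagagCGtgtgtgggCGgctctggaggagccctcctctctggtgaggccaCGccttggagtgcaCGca
Otx2, a start inside the gene (chr14:48665110-48665359, minus strand): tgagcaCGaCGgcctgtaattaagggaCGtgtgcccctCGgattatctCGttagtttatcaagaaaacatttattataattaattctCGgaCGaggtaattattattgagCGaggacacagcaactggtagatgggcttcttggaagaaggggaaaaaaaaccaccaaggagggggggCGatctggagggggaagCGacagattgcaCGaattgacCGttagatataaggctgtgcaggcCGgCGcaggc
Zic5 (chr14:122465659-122465908, minus strand): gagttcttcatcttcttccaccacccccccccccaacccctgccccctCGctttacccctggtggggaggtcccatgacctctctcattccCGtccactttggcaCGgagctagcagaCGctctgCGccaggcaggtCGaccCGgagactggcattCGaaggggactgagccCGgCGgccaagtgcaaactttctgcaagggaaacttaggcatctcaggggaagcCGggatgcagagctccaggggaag
Sall2, inner start (chr14:52316324-52316573, minus strand): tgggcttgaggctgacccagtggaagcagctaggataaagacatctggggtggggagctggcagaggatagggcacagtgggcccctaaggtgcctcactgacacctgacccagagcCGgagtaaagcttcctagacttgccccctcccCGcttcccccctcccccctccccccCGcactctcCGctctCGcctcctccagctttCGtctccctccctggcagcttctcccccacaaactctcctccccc
Sall2, upstream start (chr14:52328671-52328920, minus strand): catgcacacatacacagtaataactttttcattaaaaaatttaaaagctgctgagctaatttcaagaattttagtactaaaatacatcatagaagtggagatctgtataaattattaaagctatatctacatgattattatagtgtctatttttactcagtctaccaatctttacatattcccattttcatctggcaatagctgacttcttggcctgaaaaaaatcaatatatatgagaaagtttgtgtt
The Foxd3 window held 21 CG, a number reached by 16.3% of all windows. Utf1 and the Otx2 start shown held 14 each (reached by 29.4%), and Zic5 held 11 (reached by 35.6%). The other Otx2 starts held between 6 and 9. The inner Sall2 start had 6 CG and the upstream Sall2 start had none, so the same gene has a start of median CG content and one with no CG in this window.

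The libraries held 7342015 to 51604034 reads, as recovered from the deposited values, with the fewest in day 1 replicate 2. Tiles without a read made up 13.12% of all tiles in day 0 replicate 3 and 33.99% in day 1 replicate 2, and because such tiles were deposited at a floor value, the level of an empty tile depends on depth. Day 0 replicate 2 stood apart from its group. At 29831997 reads 30.22% of its tiles had none, against 20.73% to 25.5% in the libraries of 27381615 to 29646005 reads. Across gene values the Pearson r of day 0 replicate 2 was 0.9345 and 0.9351 with the other day 0 libraries, which correlated at 0.957 with each other. With the TET_WT day 2 libraries it was 0.9537 to 0.9546 (genes are not independent replicates). Among genes that mark other cells, 1 of 10 fibroblast and feeder genes and 3 of 8 primitive endoderm genes were called higher at day 2 than at day 0 and 1 primitive endoderm gene lower. Of all genes 15.3% were called higher and 2.51% lower. Of 19 naive pluripotency genes 15 were called higher, with a median difference of 1.34, against 0.47 over the 9 genes and 0.09 over all genes. These lists describe 5hmC and not the cells present, and their part in the results below was not tested.

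A gene value below averages the log2 RPKM of all tiles assigned to the gene, where RPKM is a read count scaled by the authors to tile length and library size. Before any comparison the position of the signal in TET_WT and DNMT_WT together is described. Utf1, Pou3f1, Foxd3 and Zic5 sat in local lows. The mean of their annotated span was lower than that of their flanks by 2.03 for Utf1 (log2 difference -2.03), and the differences were -2.25 for Pou3f1, -1.12 for Foxd3 and -0.81 for Zic5. For these 4 genes the tile with the lowest mean within 20 kb lay in the gene itself, at chr7:139944001-139946000 for Utf1, chr4:124656001-124658000 for Pou3f1, chr4:99656001-99658000 for Foxd3 and chr14:122464001-122466000 for Zic5. The Foxd3 and Zic5 tiles hold the annotated starts. Zic2 (-0.55), Otx2 (-0.51) and Sall2 (-0.23) were also below their flanks. Grhl2, a gene with 68 tiles, stood 0.68 above its flanks and Sox3 0.55 above. The Sox3 mean takes in a DNMT_WT peak in a tile of its span, given below. That tile was low in TET_WT at every time, so the Sox3 value does not place the signal in TET_WT. Over the 17886 genes with a flank value and at least 3 tiles in the span, the median was 0.20 and 40.6% were below their flanks. Foxd3, Utf1 and Sox3 have fewer span tiles and are not among those genes. Of the members that are, all but Grhl2 were below their flanks.

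**Figure D1:**
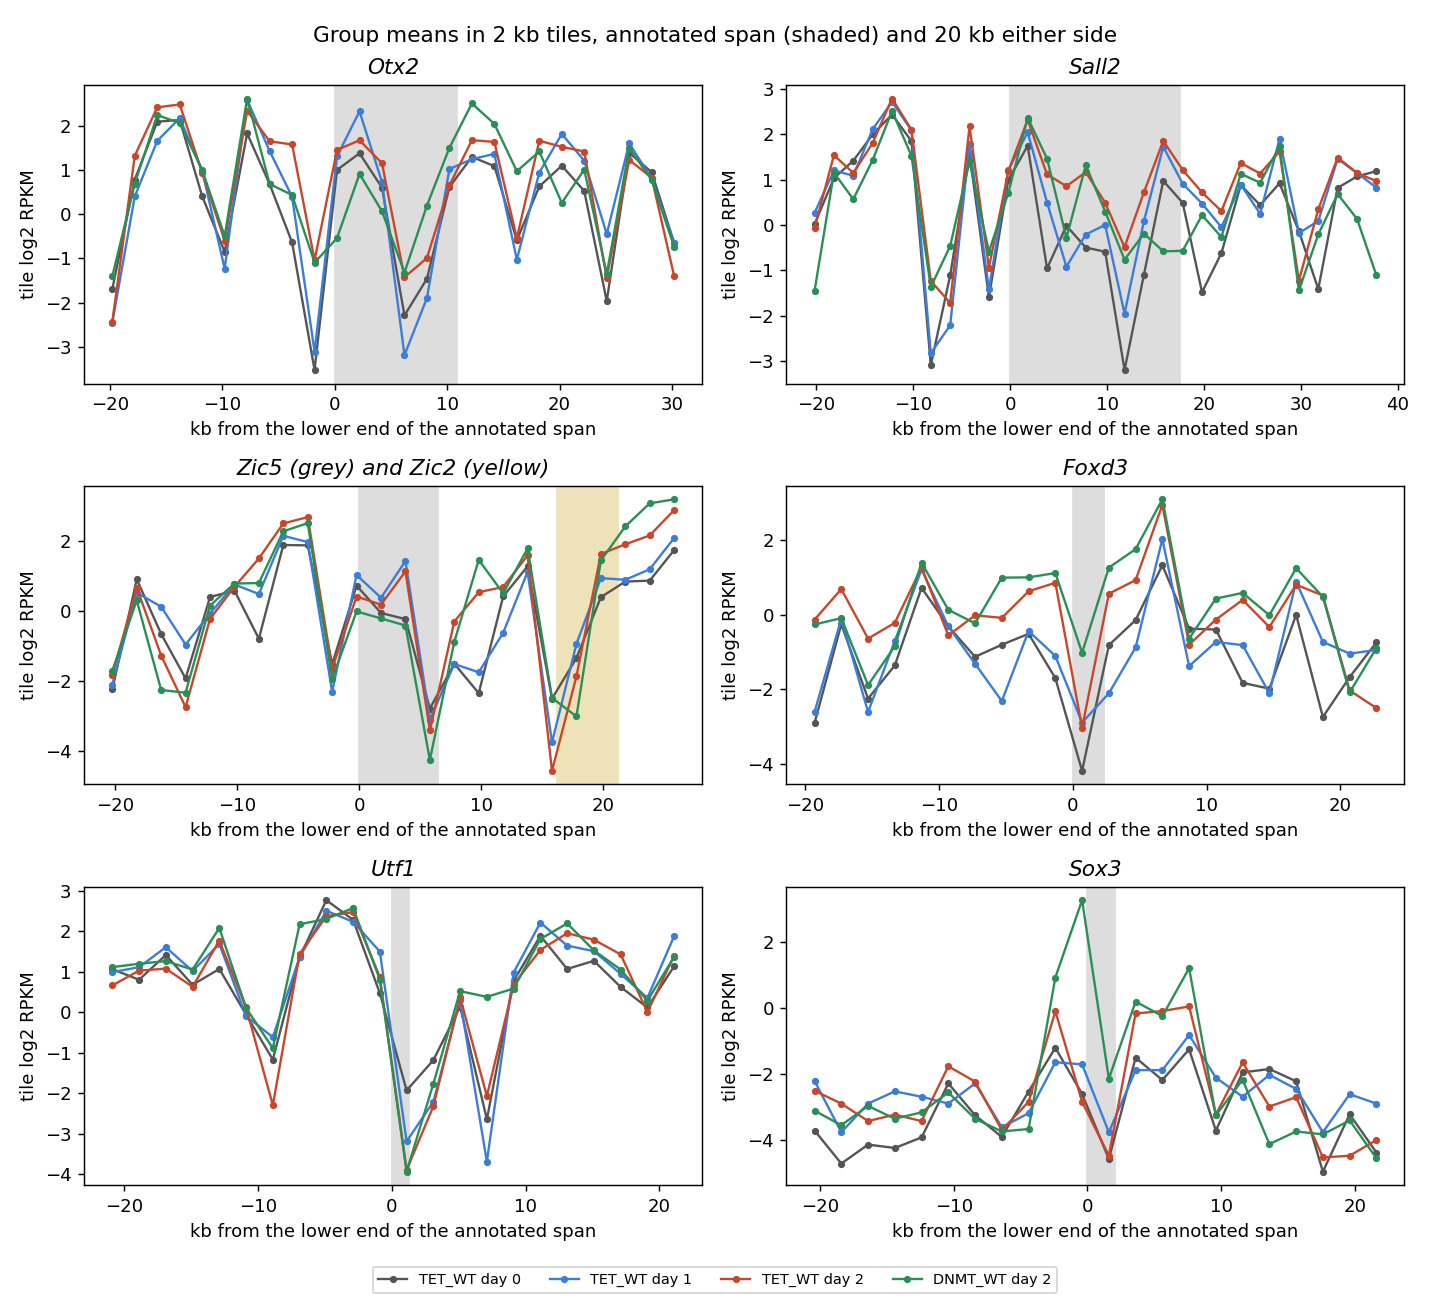
Group means of the deposited log2 RPKM (vertical axis) in 2 kb tiles against distance in kb from the lower end of the annotated span (horizontal axis) for Otx2, Sall2, Zic5 with Zic2, Foxd3, Utf1 and Sox3, with the spans shaded. The Foxd3, Zic5 and Utf1 spans lie in dips, and the DNMT_WT peak in Sox3 stands over tiles that are low in all 3 TET_WT groups.

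The comparison of day 2 with day 0 asks how 5hmC at these genes differs between naive ES cells and EpiLC of one line. Sall2, Foxd3, Otx2 and Grhl2 rose and Utf1 fell, by limma over all genes with Benjamini-Hochberg adjustment and a call at an adjusted p under 0.05. Of all genes 17.8% were called, 15.3% higher and 2.51% lower, against 4 higher and 1 lower of these 9. Because the 9 were chosen with earlier results of these data known, an excess over all genes was not tested. The median difference over the 9 genes was 0.47 against 0.09 over all genes, and 8 of the 9 differences were positive. The day 0 and day 2 libraries did not overlap at 6 of the 9 genes (5 higher and 1 lower), against 31.6% of all genes. Centring each library on its median left 3 genes higher (Otx2, Sall2 and Foxd3) and none lower, where 1207 of all genes were called higher and 56 lower. Thinning all libraries to an equal depth also left 3 higher (Sall2, Foxd3 and Grhl2) and none lower, where 2332 and 412 of all genes were called. Without day 0 replicate 3 or day 2 replicate 3 the number of genes called was 3 in place of 5. The tiles, whose values also make up the gene values, mostly rose. Of 117 tested tiles within the genes and 2 kb around them, 29 rose and 3 fell, or 27.4%, against 8.01% of all tiles. Grhl2 alone held 68 of the 117, with 14 of the rises and all 3 falls. The count of 32 called tiles was 17 without day 2 replicate 2 and 21 without day 2 replicate 1.

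Sall2 had gene values of -0.51, -0.52 and -0.28 in day 0 replicates 1, 2 and 3, of 0.12 and 0.29 in day 1 replicates 2 and 3, and of 0.80, 0.92 and 0.83 at day 2. The 3 times did not overlap, and day 1 lay between day 0 and day 2. The rise from day 0 to day 2 was 1.28 (SE 0.12, adjusted p = 2.28e-05), which took the gene from the percentile 46.8 of all genes to the percentile 79.6. It was called under all alternatives tried. Within Sall2, 6 of 12 tiles rose. The tile chr14:52322001-52324000 in the gene body went from 4, 2 and 8 reads at day 0 to 15, 16 and 15 at day 2, although the day 2 libraries were the smaller ones (difference 2.70, SE 0.71, adjusted p = 0.00426). The tile with the upstream start, whose window holds no CG, had 71, 28 and 68 reads at day 0 and 70, 36 and 49 at day 2 (difference 0.72, adjusted p = 0.217). The tile with the inner start differed by 0.87 (adjusted p = 0.214).

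Foxd3 had gene values of -1.72, -1.46 and -1.96 at day 0, of -1.95 and -1.55 at day 1, and of 0.11, -0.04 and -0.60 at day 2. Day 1 lay within the range of day 0 and every day 2 library stood above both. The difference between day 2 and day 0 was 1.54 (SE 0.21, adjusted p = 0.000302), the largest among the 9 genes, and it was called under each alternative that measured the gene. Pooled over the gene, reads scaled to RPKM by the recovered library totals were 0.170, 0.231 and 0.207 at day 0 and 0.596, 0.581 and 0.548 at day 2. The rise lay on both sides of the start. Just before it, chr4:99654001-99656000 went from 13, 9 and 12 reads to 42, 33 and 42 (difference 2.56, SE 0.41, adjusted p = 4.27e-07), and chr4:99658001-99660000, the tile named for the step from day 1, from 18, 14 and 35 to 42, 26 and 29 (1.38, adjusted p = 0.017). The tile with the start and its 21 CG held 4, 2 and 1 reads at day 0 and 6, 3 and 1 at day 2, and no difference was detectable at this depth (1.15, adjusted p = 0.611). Farther out, chr4:99674001-99676000 had 23, 1 and 7 reads at day 0 and 32, 28 and 32 at day 2 (3.26, SE 0.52, adjusted p = 3e-07).

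Otx2 had gene values of -0.20, -0.59 and -0.11 at day 0 and of 0.46, 0.28 and 0.44 at day 2, without overlap. The difference was 0.69 (SE 0.14, adjusted p = 0.00491). It was not called when all libraries were thinned to an equal read depth (0.26, adjusted p = 0.381) or when the span alone was used (0.44, adjusted p = 0.0922). Pooled reads gave 0.36 (adjusted p = 0.0242 by limma's voom). Of its 8 tiles only chr14:48654001-48656000 rose, from 4, 2 and 4 reads to 13, 8 and 11 (2.48, SE 0.82, adjusted p = 0.0387), and the next tile outward, chr14:48652001-48654000, went from 37, 12 and 29 to 67, 51 and 77 (2.22, SE 0.34, adjusted p = 8.5e-08). Both lie past the lower end of the span, on the side opposite to the starts of this minus-strand gene. The start tiles were not called, with differences of 0.86 at chr14:48662001-48664000, 0.47 at chr14:48664001-48666000 and 0.04 at chr14:48666001-48668000.

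Grhl2 had gene values of 0.52, 0.48 and 0.38 at day 0, 0.72 and 0.74 at day 1, and 0.84, 0.77 and 0.79 at day 2. The groups of day 0 and day 2 did not overlap, yet the difference was small (0.34, SE 0.09, adjusted p = 0.0154). Its call was lost without day 0 replicate 3 (adjusted p = 0.0597), without day 2 replicate 1 (0.0679) or without day 2 replicate 3 (0.0529), and with values centred on the median of each library (0.249) or each chromosome (0.24). It was also lost with only the 2 groups in the fit (0.0545). Inside this long gene the tiles moved in both directions. Of 68 tiles 14 rose and 3 fell. The largest rise was at chr15:37278001-37280000, from 58, 61 and 98 reads to 179, 157 and 152 (1.97, SE 0.18, adjusted p = 3.39e-18). The largest fall was at chr15:37242001-37244000, from 115, 92 and 109 reads to 23, 16 and 29 (-1.49, SE 0.34, adjusted p = 0.000547). The tile chr15:37346001-37348000, named for its fall at day 1, had 424, 368 and 444 reads at day 0 and 161, 107 and 197 at day 2 (-0.69, adjusted p = 0.000486).

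Utf1 was the only one of the 9 with a lower value at day 2. Its gene values were -0.17, -0.03 and -0.07 at day 0 and -0.52, -0.73 and -0.91 at day 2, without overlap (-0.63, SE 0.18, adjusted p = 0.025). The pooled reads of the same 4 tiles went the other way, with 0.761, 0.775 and 0.741 RPKM at day 0 and 0.810, 0.810 and 0.863 at day 2 (voom difference 0.13, adjusted p = 0.48). The call was also lost at equal depth (-0.19, adjusted p = 0.571), with median centring (0.231) or chromosome centring (0.16), with 20 kb included (-0.04, adjusted p = 0.82) and when day 0 replicate 3 (0.0656) or, of the day 2 libraries, replicate 2 (0.0783) or 3 (0.107) was left out. None of its 4 tiles was called, among them chr7:139942001-139944000, which holds the annotated start. The tile with most of the gene, chr7:139944001-139946000, singled out after its values were seen, held 14, 9 and 7 reads at day 0 and 3, 1 and 1 at day 2 (-1.97, adjusted p = 0.24), while the richest tile of the 4, chr7:139940001-139942000, also singled out in this way, held 235, 128 and 188 against 133, 93 and 139. The mean over tiles counts both tiles alike, whereas most pooled reads lie in the second.

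Pou3f1, Zic2, Zic5 and Sox3 were not called. With 20 kb included, Pou3f1 (0.57, adjusted p = 0.00014) and Zic2 (0.37, adjusted p = 0.0219) were, and 6 genes were called higher in all. Pou3f1 had -0.25, -0.42 and -0.84 at day 0 and -0.33, 0.13 and 0.10 at day 2, with overlap (0.47, SE 0.20, adjusted p = 0.139). Its flanks did rise, from 1.09, 1.29 and 1.02 to 1.70, 1.77 and 1.72 (0.60, SE 0.10, adjusted p = 1.72e-05). In them 10 of 18 tiles rose and 1 fell, the largest being chr4:124648001-124650000 with 66, 43 and 68 reads at day 0 and 96, 86 and 78 at day 2 (1.34, SE 0.25, adjusted p = 1.26e-05). The gene itself had 1 called tile of 5, chr4:124660001-124662000 (0.75, adjusted p = 0.0369).

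Zic2 had -0.02, -0.11 and -0.14 at day 0 and 0.06, 0.20 and 0.13 at day 2. The groups did not overlap and the difference of 0.22 (SE 0.16) was not called (adjusted p = 0.417). In pooled reads the gene went from 0.528, 0.573 and 0.616 to 1.07, 1.03 and 1.04 RPKM (0.88, SE 0.11, adjusted p = 5.15e-05 by voom). The mean over tiles gives every tile the same weight, including those nearly empty at either time, and the pooled reads weigh the rich ones. Of its 6 tiles 3 rose, led by chr14:122482001-122484000 with 71, 50 and 81 reads at day 0 and 105, 64 and 128 at day 2 (1.29, SE 0.21, adjusted p = 5.96e-07).

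Between Zic5 and Zic2, in the flank of both, chr14:122468001-122470000 went from 3, 8 and 15 reads at day 0 through 1 and 13 at day 1 to 34, 31 and 28 at day 2. Its difference of 2.88 (SE 0.48, adjusted p = 8.2e-07) was the largest in the flanks of either gene. Zic5 itself had -0.60, -1.08 and -1.04 at day 0 and -0.72, -0.46 and -0.67 at day 2, with overlap (0.29, SE 0.22, adjusted p = 0.44). Its 1 called tile, chr14:122462001-122464000, had 63, 15 and 31 reads at day 0 and 46, 46 and 48 at day 2 (1.36, SE 0.35, adjusted p = 0.0031). The Zic5 start tile held 8, 6 and 3 reads at day 0 and 3, 0 and 3 at day 2 (adjusted p = 0.83).

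Sox3 had the lowest level of the 9 in TET_WT, at -2.04, -2.58 and -2.80 at day 0 and -2.01, -2.09 and -1.59 at day 2. The groups overlapped by 1 day 2 library, and the difference of 0.58 (SE 0.25) was not called (adjusted p = 0.137). Pooled reads were 70, 22 and 33 at day 0 and 47, 38 and 51 at day 2 (voom difference 0.98, SE 0.32, adjusted p = 0.0289).

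**Figure D2:**
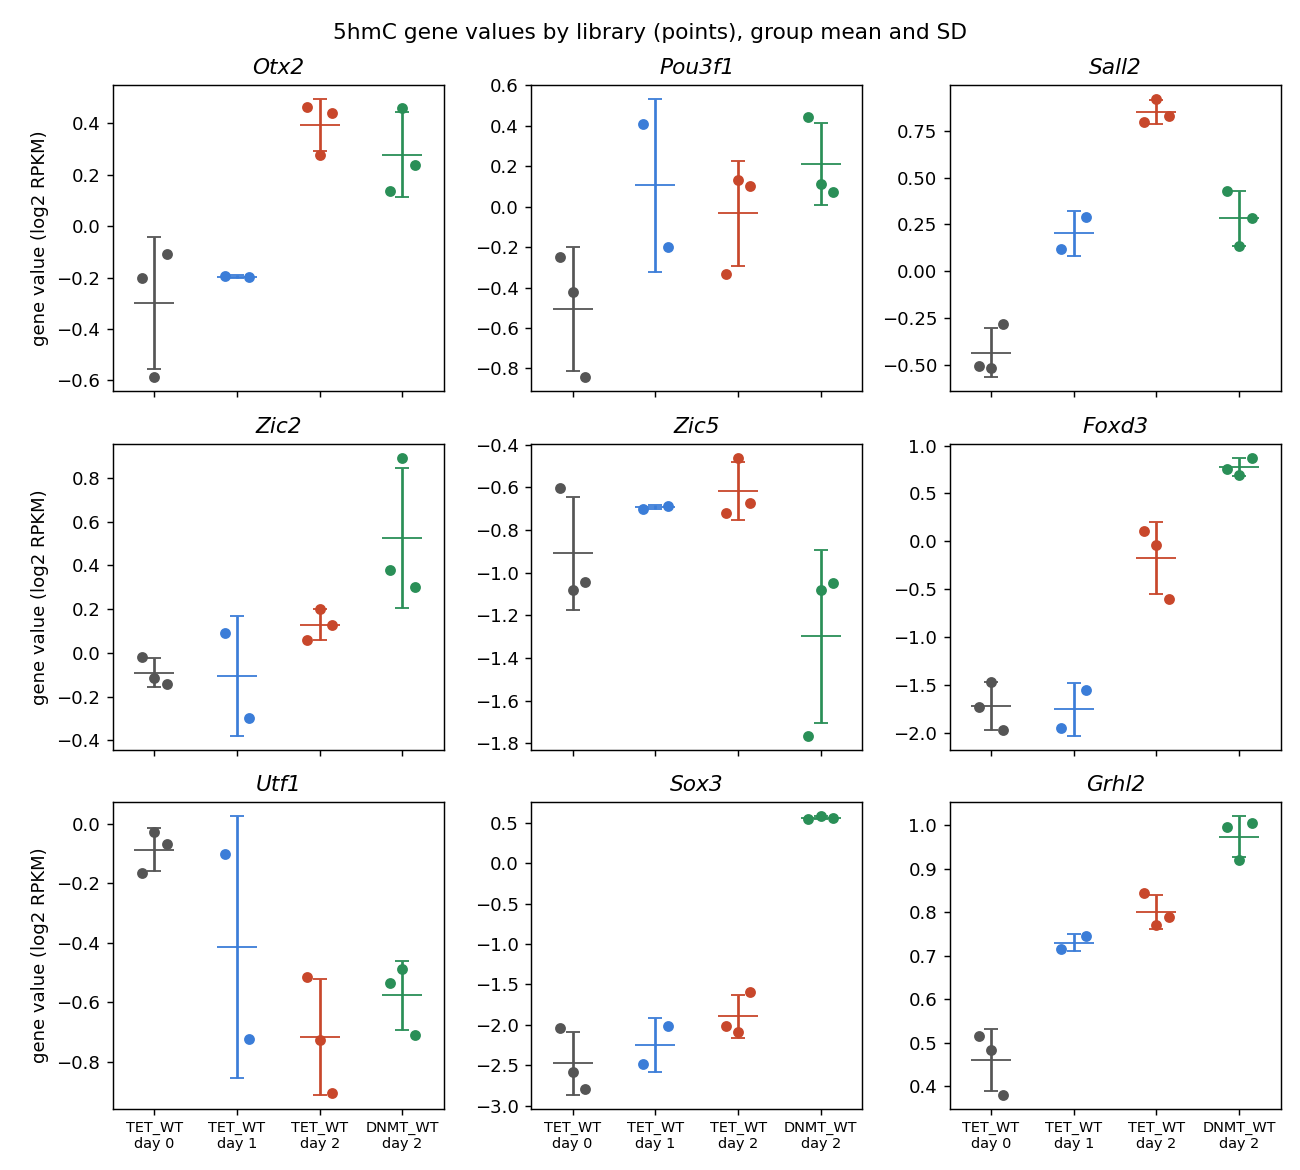
Gene values (tile log2 RPKM averaged per gene, vertical axis) of the 9 genes in each of the 11 libraries, with points for libraries and bars for the group mean and SD. Sall2, Foxd3, Otx2 and Grhl2 are higher at day 2 than at day 0 without overlap, Utf1 is lower, and Sox3 stands near 0.56 in DNMT_WT against -2.09 to -1.59 in TET_WT at day 2.

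By pooled reads and voom 7 of the 9 genes rose (Otx2, Pou3f1, Sall2, Zic2, Foxd3, Sox3 and Grhl2) and none fell, where 24.5% of all genes were called higher and 8.8% lower. The flanks behaved alike. Between day 0 and day 2, 7 of 9 flanks rose and none fell, against 16.2% and 3.56% of all flanks, with differences from 0.36 for Sall2 to 0.95 for Foxd3 (SE 0.17, adjusted p = 0.0001). The Zic2 flank holds the Zic5 gene and the Zic5 flank the Zic2 gene, so these flanks are not separate from the members or from each other. The flanks of Utf1 (0.09) and Sox3 (0.49) were not called. Centring on the median of each library or chromosome left 1 flank called, and a fit without a variance trend 2. The number of flanks called was 4 without replicate 1 of day 0 or either replicate 1 or replicate 2 of day 2, and 3 without day 2 replicate 3. Without day 0 replicate 2, the library that stood apart, the same 5 genes were called. Their differences were 1.67 for Foxd3, 1.24 for Sall2, 0.55 for Otx2, 0.35 for Grhl2 and -0.60 for Utf1. Many more of all 20717 genes were called in that fit, 4563 higher and 1980 lower, against 3170 and 519 with every library.

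**Figure D3:**
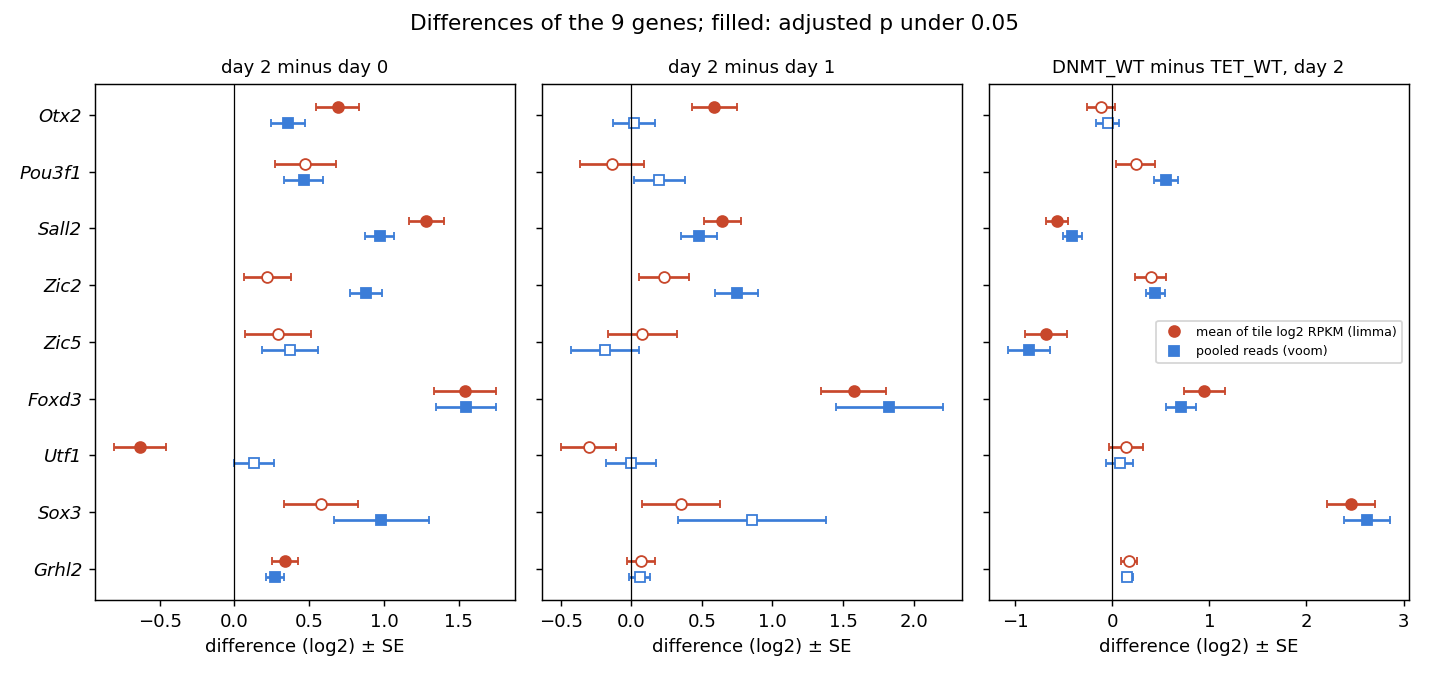
Differences on the log2 scale with their SE for the 9 genes in 3 comparisons, from the mean of tile log2 RPKM (circles) and from pooled reads (squares), filled where the adjusted p was under 0.05. Foxd3 and Sall2 are called by both measures in each panel, whereas Utf1 between day 2 and day 0 is -0.63 by tile means and 0.13 by pooled reads.

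Day 1 was compared with day 0 to ask what the first day of conversion changed, with only 2 libraries at day 1. None of the 9 genes was called, and none of all 20717 genes was (0%). At an unadjusted p under 0.05 there were 2551 genes, and voom called 188 genes (0.907%), none of them among the 9. Sall2 came nearest, at 0.64 (SE 0.13, adjusted p = 0.0956), with both day 1 libraries above all 3 of day 0. Pou3f1 differed by 0.61 (adjusted p = 0.304), with day 1 values of 0.41 and -0.20. Grhl2 differed by 0.27 (adjusted p = 0.285) and Foxd3 by -0.03 (adjusted p = 0.961). The day 1 libraries of the remaining genes overlapped those of day 0, with differences of 0.10 for Otx2 (adjusted p = 0.811), -0.01 for Zic2 (0.98), 0.21 for Zic5 (0.738), -0.33 for Utf1 (0.519) and 0.22 for Sox3 (0.761).

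Single tiles did pass. In the genes 4 tiles rose and 1 fell of 117 (4.27%, against 1.01% of all tiles). The Grhl2 tile chr15:37278001-37280000 had 25 and 100 reads at day 1 (1.09, SE 0.20, adjusted p = 0.00044), and chr15:37346001-37348000 fell to 47 and 170 reads (-0.62, adjusted p = 0.0421). The Zic5 tile chr14:122462001-122464000 had 18 and 59 reads (1.66, SE 0.39, adjusted p = 0.00969). The Sall2 tile chr14:52330001-52332000, upstream of the gene, had 17, 6 and 22 reads at day 0 and 8 and 36 at day 1 (1.95, SE 0.45, adjusted p = 0.00912). Without day 1 replicate 2, the shallowest library, 1 tile was called in place of 5. In the flanks 7 of 157 tiles rose, 4 of them around Pou3f1. No flank as a whole was called, against 0.0283% of all flanks, and 1 was without day 0 replicate 2.

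From day 1 to day 2 Foxd3, Sall2 and Otx2 rose and no member fell, where 8.99% of all genes were called higher and 0.599% lower. This comparison shares its day 2 libraries with the first one and its day 1 libraries with the second. Foxd3 rose by 1.57 (SE 0.23, adjusted p = 0.00136), close in size to its whole difference from day 0. Sall2 rose by 0.65 (SE 0.13, adjusted p = 0.00843), a call lost without day 1 replicate 2 (0.56, adjusted p = 0.0853), at equal depth (0.49, adjusted p = 0.224) and with median centring (0.68, adjusted p = 0.15). Otx2 rose by 0.59 (SE 0.16, adjusted p = 0.0351), but its pooled reads differed by 0.02 (adjusted p = 0.953). Its call was lost without either day 1 library (adjusted p = 0.152 and 0.116), without any of the TET_WT day 2 libraries (0.0638 to 0.109) and without DNMT_WT replicate 3. It was lost as well at equal depth (0.30, adjusted p = 0.462), with 20 kb included (0.30, 0.0882), with the span alone (0.37, 0.271), with median centring (0.173) and without a variance trend (0.0688). The other genes were not called, with differences of -0.14 for Pou3f1 (adjusted p = 0.746), 0.23 for Zic2 (0.454), 0.08 for Zic5 (0.872), -0.30 for Utf1 (0.384), 0.35 for Sox3 (0.467) and 0.07 for Grhl2 (0.691). By pooled reads Zic2 was higher (0.75, SE 0.15, adjusted p = 0.0173). Without day 1 replicate 2 the number of genes called was 1 in place of 3. The median over the 9 genes was 0.23 against 0.00 over all genes.

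The Foxd3 rise of this step lay in 3 of its 4 tiles. In chr4:99658001-99660000 there were 1 and 8 reads at day 1 and 42, 26 and 29 at day 2 (2.67, SE 0.46, adjusted p = 9.09e-06). In Sall2 the tile with the inner start had 2 and 21 reads at day 1 and 49, 26 and 46 at day 2 (1.77, SE 0.45, adjusted p = 0.00716). In Zic2 chr14:122480001-122482000 had 11 and 46 reads and then 107, 60 and 79 (1.01, SE 0.26, adjusted p = 0.00901). The intergenic Zic tile rose by 2.29 (adjusted p = 0.00265). In Grhl2 the largest rise was at chr15:37328001-37330000, from 2 and 20 reads to 64, 35 and 53 (2.14, SE 0.38, adjusted p = 1.33e-05). Of the 117 tiles 12 rose and none fell (10.3%, against 2.96% of all tiles). The count was 4 without day 1 replicate 2 and 7 without day 2 replicate 1 or day 2 replicate 3. Of the flanks 1 was called, against 12.6% of all flanks, and none without day 1 replicate 2 or day 2 replicate 2, and 2 without any 1 of the day 0 libraries.

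The comparison of DNMT_WT with TET_WT at day 2 sets a pair of wild-type lines side by side at the same time. Sox3 and Foxd3 were higher in DNMT_WT and Sall2 and Zic5 lower, where 14.9% of all genes were called higher and 4.07% lower. The median over the 9 genes was 0.17 against 0.10 over all genes, and the split of 2 higher and 2 lower was 4 and none relative to chromosome reads and 2 and none with median centring. The lines did not overlap at 6 of the 9 genes, against 48.3% of all genes. Line, culture and any other difference between the 2 sets of libraries cannot be told apart.

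Sox3 stood far apart. Its gene values were 0.54, 0.58 and 0.56 in DNMT_WT and -2.01, -2.09 and -1.59 in TET_WT (2.46, SE 0.25, adjusted p = 8.43e-05), and its percentile among all genes was 65.4 against 21.1. Pooled reads were 460, 179 and 337 against 47, 38 and 51. The largest difference was in chrX:60890001-60892000, with 358, 129 and 248 reads in DNMT_WT and 3, 1 and 9 in TET_WT (6.11, SE 0.57, adjusted p = 6.82e-18). Only 16 of all 1183891 tiles had a larger difference in this comparison. The other Sox3 tiles were not called, at 2.33 (adjusted p = 0.145), 1.02 and 0.36. In TET_WT this tile was low at every time, with 9, 6 and 4 reads at day 0 and 2 and 7 at day 1. The flanks of Sox3 did not follow (-0.27, SE 0.32, adjusted p = 0.608), and with 20 kb included the gene was not called (0.25, adjusted p = 0.51). The share of library reads on chromosome X was 1.12% to 1.13% in DNMT_WT and 1.11% to 1.14% in TET_WT at day 2.

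Foxd3 had 0.75, 0.69 and 0.88 in DNMT_WT and 0.11, -0.04 and -0.60 in TET_WT, without overlap (0.95, SE 0.21, adjusted p = 0.0078). None of its 4 tiles was called alone. The start tile held 17, 9 and 10 reads in DNMT_WT and 6, 3 and 1 in TET_WT (2.01, adjusted p = 0.306). As for Sox3 the call was absent with 20 kb included (0.29, adjusted p = 0.183).

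Otx2, Sall2, Zic2 and Zic5 lie on chromosome 14, which took 3.54% to 3.57% of the reads in each DNMT_WT library and 5.41% to 5.47% in each TET_WT library at day 2, a log2 ratio of -0.62. The groups did not overlap. At day 0 the share in TET_WT was 5.11% to 5.45%. The shares of chromosomes 4, 7 and 15 differed by 0.09, 0.14 and 0.04. What lowered the share of chromosome 14 was not tested. Differences of the 4 genes are therefore given both as deposited and relative to the reads on their own chromosome, the latter an alternative chosen after seeing the data.

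**Figure D4:**
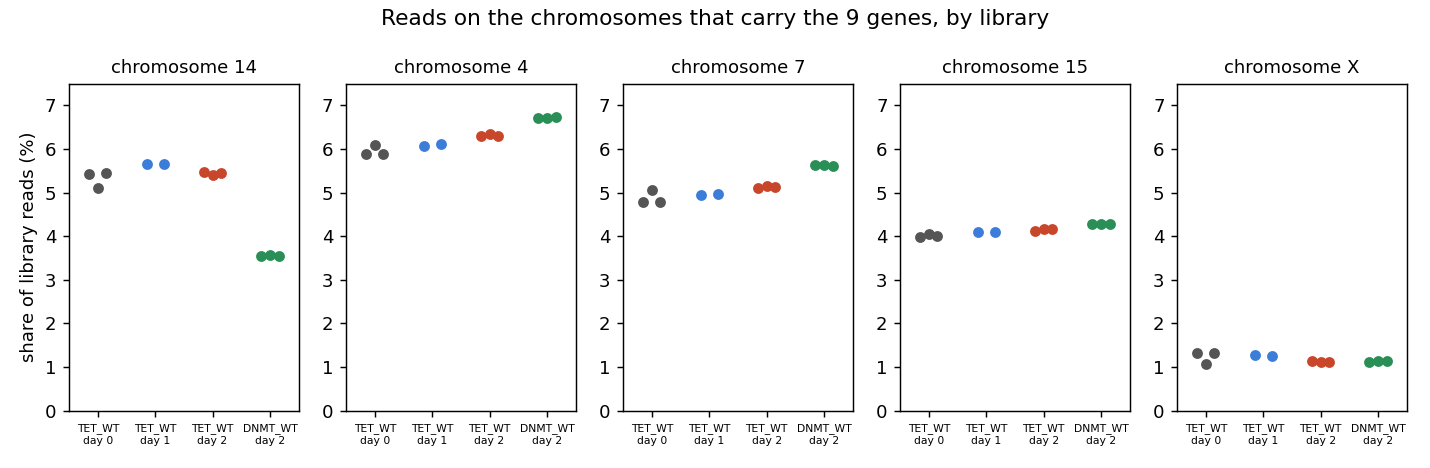
Share of library reads (percent, vertical axis) on the chromosomes of the 9 genes, 1 point per library and 1 panel per chromosome. On chromosome 14, which carries Otx2, Sall2, Zic2 and Zic5, the DNMT_WT libraries lie between 3.54% and 3.57% and all TET_WT libraries between 5.11% and 5.66%.

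Sall2 had 0.43, 0.13 and 0.29 in DNMT_WT and 0.80, 0.92 and 0.83 in TET_WT (-0.57, SE 0.12, adjusted p = 0.00622). The call was lost with median centring (-0.35) and at equal depth (-0.47). Relative to chromosome 14 the difference was 0.05 (adjusted p = 0.835), and with pooled reads scaled to RPKM by the reads of that chromosome the values were 20.7, 19.2 and 18.2 against 16.1, 18.4 and 16.5. Within Sall2 the loss was not even. The tile chr14:52326001-52328000 had 28, 6 and 23 reads in DNMT_WT and 95, 63 and 78 in TET_WT (-2.43, SE 0.29, adjusted p = 1.41e-11). The neighbouring tile with the upstream, CG-free start had 22, 12 and 15 against 70, 36 and 49 (-1.78, SE 0.33, adjusted p = 5.83e-05). Both differences are larger than that of the chromosome. The other 10 tiles were not called.

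Zic5 had -1.77, -1.08 and -1.05 in DNMT_WT and -0.72, -0.46 and -0.67 in TET_WT (-0.68, SE 0.22, adjusted p = 0.0451). Relative to its chromosome the difference was -0.06 (adjusted p = 0.896), and the call was lost without any 1 of the DNMT_WT libraries (adjusted p = 0.187, 0.057 and 0.0514) or of the TET_WT day 2 libraries (0.096, 0.15 and 0.101), and also without either day 1 library. The tile chr14:122462001-122464000 had 24, 13 and 17 reads against 46, 46 and 48 (-1.55, SE 0.35, adjusted p = 0.00156).

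Zic2, its neighbour, had 0.38, 0.89 and 0.30 against 0.06, 0.20 and 0.13 (0.40, SE 0.16, adjusted p = 0.0994), without overlap. Relative to its chromosome it was higher in DNMT_WT (1.01, adjusted p = 0.00175), with pooled values of 38.4, 42.7 and 41.2 against 19.5, 19.1 and 19.2 RPKM by the reads of chromosome 14. Pooled reads scaled to the whole library also passed (0.45, adjusted p = 0.0039). The tile chr14:122482001-122484000 held 278, 123 and 220 reads against 105, 64 and 128 (0.92, SE 0.21, adjusted p = 0.00227), so this end of the Zic pair was higher although the chromosome as a whole was lower. The flanks of Zic2, which hold the Zic5 gene, were lower as deposited (-0.47, SE 0.14, adjusted p = 0.0114). The read share of chromosome 14 as a whole was lower by a log2 ratio of -0.62.

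Otx2 had 0.13, 0.46 and 0.24 against 0.46, 0.28 and 0.44, with overlap (-0.12, SE 0.14, adjusted p = 0.642). Relative to its chromosome the difference was 0.50 (adjusted p = 0.0249), in the other direction. Its tiles split. At chr14:48656001-48658000, the end of the gene away from its starts, DNMT_WT had 17, 19 and 13 reads and TET_WT 68, 49 and 61 (-1.99, SE 0.31, adjusted p = 7.17e-07). At chr14:48668001-48670000, just upstream of the outermost start, it had 205, 89 and 129 against 77, 45 and 93 (0.83, SE 0.23, adjusted p = 0.0152).

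Pou3f1, Utf1 and Grhl2 were not called. Pou3f1 differed by 0.24 (adjusted p = 0.462), and by 0.55 in pooled reads (SE 0.13, adjusted p = 0.00456), with chr4:124662001-124664000 higher (0.81, adjusted p = 0.0103) and chr4:124646001-124648000 in its flank lower (-1.50, SE 0.27, adjusted p = 2.43e-05). Utf1 differed by 0.14 (adjusted p = 0.65), while its flanks were higher (0.35, SE 0.11, adjusted p = 0.0153). Grhl2 differed by 0.17 (adjusted p = 0.189). Its tile chr15:37232001-37234000 at the lower end of the gene had 60, 26 and 39 reads against 15, 4 and 7 (2.27, SE 0.62, adjusted p = 0.0156). Over all 9 genes 7 tiles were higher and 5 lower of 117 (10.3%, against 3.24% of all tiles), a count of 7 in place of 12 without TET_WT day 2 replicate 2 or DNMT_WT replicate 2. By pooled reads 4 genes were higher (Pou3f1, Zic2, Foxd3 and Sox3) and 2 lower (Sall2 and Zic5), where 23.3% and 8.76% of all genes were. Of the flanks 1 was higher and 2 lower, against 18.6% and 5.84%. Both lower flanks, those of Sall2 and Zic2, lie on chromosome 14, as do all 5 lower tiles. The counts of flanks and tiles are as deposited. Relative to chromosome reads 2 flanks and 14 tiles were called.

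The order of the gene values also differed by group. At day 0 it ran from Grhl2 (0.46 ± 0.07, SD, n = 3) through Utf1 (-0.09 ± 0.07), Zic2 (-0.09 ± 0.07), Otx2 (-0.30 ± 0.26), Sall2 (-0.43 ± 0.13), Pou3f1 (-0.51 ± 0.31), Zic5 (-0.91 ± 0.27) and Foxd3 (-1.72 ± 0.25) to Sox3 (-2.47 ± 0.39). Grhl2 and Foxd3 stood apart from their neighbours by more than the SDs, and the genes from Utf1 to Zic5 followed one another without such a gap. At day 2 of TET_WT Sall2 (0.85 ± 0.06) and Grhl2 (0.80 ± 0.04) led, with overlapping ranges, and Sox3 (-1.90 ± 0.27) stayed last. In DNMT_WT Grhl2 (0.97 ± 0.05), Foxd3 (0.77 ± 0.09) and Sox3 (0.56 ± 0.02) led and Zic5 (-1.30 ± 0.41) was last.

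Other genes around these factors were read from lists. Of 20 other genes of the formative and primed epiblast, 8 rose and none fell between day 0 and day 2, where 15.3% of all genes rose (median 0.36, against 0.09 over all genes), among them Nanos3, a germ cell factor (1.27, SE 0.14, adjusted p = 6.98e-05), and the ETS factor gene Etv5 (1.11, adjusted p = 0.000128). Fgf5, a growth factor gene much used as a marker of this state and named here after its values were seen, rose by 0.59 (adjusted p = 0.043). Between the lines 6 of the 20 were higher in DNMT_WT and none lower (median 0.32), where 14.9% of all genes were higher. Of 18 relatives of the 9 genes, from the same families, 8 rose and none fell over the 2 days (median 0.49), led by Grhl3 (1.42, adjusted p = 2.08e-06). In DNMT_WT 14 of the 18 were higher and none lower (median 0.99, against 0.10 over all genes), with Otx1 at 2.36 (adjusted p = 4.44e-05) and Pou3f2 at 1.79 (adjusted p = 0.000337). Otx1 and Pou3f2 did not pass between day 0 and day 2 (-0.42 and -0.34). None of either list passed between day 0 and day 1.

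The genes whose values followed a member most closely over the 11 libraries were Hes3 (Pearson r 0.991) and Wnt10b (0.99) for Foxd3, Pdlim2 (0.977) and Kat6b (0.966) for Sall2, and Ubl3 (0.965) and Nhsl1 (0.963) for Otx2. For Grhl2 they were Sod1 (0.988) and Gal (0.973), and for Sox3 Pfdn6 (0.987) and Hmga2 (0.984). Utf1 had Adgrf5 (0.951) and Zfp729a (0.907), and Zic5 had Zscan4d (0.918) and Retnlb (0.906), the lowest values of the 7 genes. Only genes over 1 Mb away or on another chromosome were considered. The libraries share their group means and depths, so these values are a description.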

How the data were processed

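Values are log2 RPKM per 2 kb tile as deposited by the authors, for 11 libraries of HMCP-seq. Per the submitters' processing notes, Trim Galore 0.6.5, cutadapt 2.3, Bowtie2 2.4.1 and GRCm38 were used, and how reads were assigned to tiles is not given in the sources used here. The steps of the deposited values gave whole reads back for every value of each library within 0.1%, with an empty tile deposited as 0.9 reads. Read counts and rates in the text come from these recovered reads. The rates use the recovered library totals and are not on the scale of the deposited values.

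Of 1362779 tiles, 1316897 lie on chromosomes 1 to 19 and X. Tiles with the lowest 10% and the highest 0.1% of means were left out, which kept 1183891. Gene and flank values needed at least 3 tiles, which 20717 of 21631 annotated protein-coding genes had, and 21215 flanks. limma 3.58.1 (R 4.3.3, with Matrix 1.6.5 and version 1.17.8 of data.table) was fitted to all 11 libraries in 4 groups with a variance trend, separately for genes, flanks and tiles. Tests were two-sided, and a call was a Benjamini-Hochberg adjusted p under 0.05 over all features. limma's voom was run on reads pooled per gene. The script was tested on simulated data. Alternatives were other filters, centrings, windows and fits, an equal read depth, a replicate block, and leaving out each library.

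The 9 genes and the lists were chosen with earlier results of these data known. All 9 genes are named in each comparison. Tiles named are the called tile of a gene with the largest difference in each direction, the called flank tile with the largest difference, and the start tiles. Examples from lists have the smallest p or the largest difference of the opposite sign, and genes of like pattern are the 2 with the highest Pearson r. A tile named for one comparison may be given in another, and the lowest tile near a gene is given to place its low. Other tiles are said to be singled out where they are named.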

Additional observations from a re-analysis of the deposited data

How the results depend on the processing

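The fit with a replicate block called 5 genes between day 2 and day 0, none at day 1, 2 from day 1 to day 2 and 3 between the lines; the calls lost were Otx2 from day 1 to day 2 (0.58, adjusted p = 0.0613 by limma) and Zic5 between the lines (-0.68, adjusted p = 0.0703). The labels do not say that a number marks a shared culture, and the numbers were not taken as pairs. Deviations from the group mean correlated at -0.288 to 0.299 over 15 pairs of the same number and at -0.299 to 0.288 over 30 pairs of different numbers, with the 2 day 1 libraries mirroring each other by construction. Between day 0 and day 2, and between the lines at day 2, 2 of 3 libraries correlated best with their own number, and 0 of 3 did between day 0 and DNMT_WT.

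Counts of calls moved as follows, and the cause was not tested. Between day 2 and day 0 the 5 genes became 3 with median centring, chromosome centring or equal depth and 2 with the span alone (3 to 5 with a library left out). The 7 flanks became 1 with either centring and 2 without a variance trend (3 to 7), and the 32 tiles became 18 with chromosome centring, 4 at equal depth and 5 without a trend (17 to 37). At day 1 the 0 flanks became 1 by voom (0 to 1), and the 5 tiles became 2 with median centring, 0 with chromosome centring or without a trend, 1 at equal depth or with only the groups compared, and 3 by voom (1 to 5). From day 1 to day 2 the 3 genes became 1 with median centring, equal depth or the span alone (1 to 3). There the 1 flank became 0 without a trend and 2 with only the groups compared or by voom (0 to 2), and the 12 tiles became 5 with median centring, 2 at equal depth and 0 without a trend or by voom (4 to 15). Between the lines the 4 genes became 2 with median centring, equal depth, 20 kb included or the span alone (3 to 4). The 3 flanks became 0 with median centring and 1 at equal depth (2 to 4), and the 12 tiles became 2 at equal depth or without a trend and 22 with only the groups compared (7 to 14). Thinning removes reads, and the span alone measured 6 of the 9 genes, since Foxd3, Utf1 and Sox3 have fewer than 3 tiles.

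Directions of single genes turned as follows, and the causes were not tested. With the span alone Zic2 was at -0.0716 between day 2 and day 0 and at -0.0093 from day 1 to day 2, Zic5 at -0.35 from day 1 to day 2, and Pou3f1 at -0.21 between the lines. With chromosome centring Otx2 was at -0.18, Zic5 at -0.0685 and Sox3 at -0.42 at day 1, Pou3f1 at 0.03 from day 1 to day 2, and Otx2 at 0.75, Sall2 at 0.30 and Zic5 at 0.18 between the lines. Relative to chromosome reads, chosen after seeing the data, Otx2 was at 0.50 and Sall2 at 0.0508 between the lines. At equal depth the day 1 differences were -0.0402 for Otx2, 0.10 for Zic2, 0.0246 for Foxd3 and -0.0838 for Sox3. With median centring Zic2 was at 0.0385 and Foxd3 at 0.0185 at day 1, and Otx2 at 0.10 between the lines. With a replicate block Foxd3 was at 0.0089 at day 1. With 20 kb included Zic2 was at 0.12, Foxd3 at 0.14 and Utf1 at 0.10 at day 1, Pou3f1 at 0.0932 and Sox3 at -0.0069 from day 1 to day 2, and Zic2 at -0.26 between the lines. By voom Utf1 was at 0.13 between day 2 and day 0, Zic2 at 0.13 and Utf1 at 0.13 at day 1, and Pou3f1 at 0.20 and Zic5 at -0.18 from day 1 to day 2. With 1 library left out, the day 1 differences ranged from -0.21 to 0.18 for Zic2, from -0.0425 to 0.20 for Otx2, from -0.23 to 0.16 for Foxd3 and from -0.0134 to 0.46 for Sox3, and those from day 1 to day 2 from -0.44 to 0.17 for Pou3f1, from -0.61 to 0.0093 for Utf1 and from -0.0014 to 0.13 for Zic5. With a day 1 library left out, the lone one is assumed to vary like the other groups. The median difference of all genes between the lines was 0.10 as deposited, 0.31 with median centring and 0.29 with chromosome centring, where 2370 genes were called higher and 183 lower with median centring and 1948 and 89 with chromosome centring, against 3086 and 843 as deposited. From day 1 to day 2 that median was 0.00 as deposited and 0.15 with chromosome centring, and at day 1 it was 0.09 and -0.02.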
